A study of Homo sapiens with 3 samples.

Results

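The genes of de novo purine synthesis were followed in a pooled knockout screen of metabolic genes. The group was set by gene symbol and not by any measured value: PPAT, GART, PFAS, PAICS, ADSL, ATIC, ADSS, GMPS, IMPDH1 and IMPDH2, which are 10 of the 2978 genes that the guide library listed. Earlier results of these data were known when the group was chosen. Each of the 10 genes was targeted by 10 guides. Of these 100 guides, 94 had at least 100 counts in the initial population and were used, and all 10 genes kept the minimum of 6 guides.

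The screen was carried out in MIA PaCa-2, an established human pancreatic ductal adenocarcinoma line, infected with a lentiviral library of CRISPR guides and selected with puromycin. The apilimod arm was grown for 14 days in the presence of apilimod, which inhibits the lipid kinase PIKfyve, and the DMSO arm for 14 days with the solvent. The initial population was collected at day 0, before either treatment. The sample labels give apilimod at 200 nM, while the methods of the study name another concentration for this arm, so the concentration is uncertain. All groups carry the same library in the same line, and each was sequenced as 1 library from a pool of cells.

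Cells build the purine ring on phosphoribosyl pyrophosphate (PRPP) in a chain of reactions that ends at inosine monophosphate (IMP). IMP is then converted along one branch to AMP and along the other to GMP, the precursors of ATP and GTP and of the purines in RNA and DNA. Cells can also recover purine bases and nucleosides from their surroundings or from breakdown through salvage enzymes, so the need for the de novo route depends on both.

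Knockouts of 9 of the 10 genes were depleted after 14 days in both arms, and IMPDH1 was the member whose score was not called in either. The gene score, the mean log2 change of a gene's guides from the initial population, had a median over the 10 genes of −2.19 in apilimod and −1.98 in DMSO, beside −0.04 and −0.03 over all 2969 genes tested. The guides of each gene were compared with 487 control guides that cut intergenic sequence. The test was a two-sided rank-sum test with exact p-values, adjusted over all 2969 genes after Benjamini and Hochberg. In apilimod 9 of the 10 genes were called lower, where 29.0% of all genes were, and in DMSO 9 of the 10 were called lower, where 18.9% were. By size alone, 9 of the 10 had a score of −1 or less in apilimod, against 7.07% of all genes, and 9 of the 10 in DMSO, against 5.73%. The arms share the initial population, so their counts are not independent of each other. With 1 library per group there is no replicate check: the test compares guides within these libraries and not the conditions.

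The libraries were of like depth, with 25599416 counts in apilimod, 26276517 in DMSO and 24695476 in the initial population, and medians of 655, 663 and 651 counts per guide in that order. The median control guide changed by 0.22 on the log2 scale in apilimod and by 0.14 in DMSO, above the median of all genes in both arms, with an SD over guides of 0.73 in apilimod and 0.40 in DMSO. Among control guides with 100 to under 200 initial counts the median change was 1.91 in apilimod and −0.06 in DMSO (n = 20), while the 2209 gene guides in that range had medians of 0.20 and −0.02. With only control guides of at least 300 initial counts as the null, 9 of the 10 members were again called lower in each arm. With every gene guide as the null, 8 were called lower in apilimod and 9 in DMSO.

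**Figure D1:**
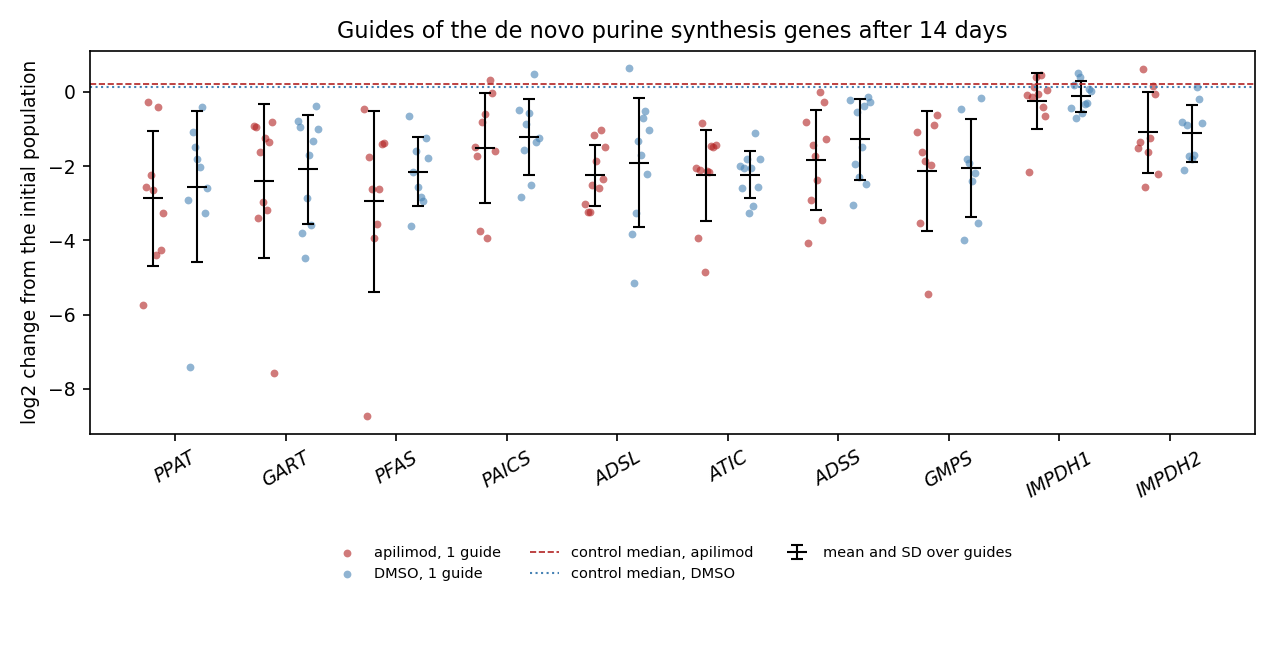
Log2 change of each tested guide from the initial population (y axis) for the 10 genes of de novo purine synthesis (x axis), with apilimod left and DMSO right in each pair. Points are guides, bars are the mean and SD over guides, and lines are the control medians of 0.22 in apilimod and 0.14 in DMSO. Nearly all guides of 9 genes lie below both lines. Of the 10 guides of IMPDH1, 8 lie below the line in apilimod and 7 in DMSO.

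PPAT, the amidophosphoribosyltransferase that commits PRPP to the pathway, was among the most depleted members in both arms. It is encoded on the minus strand of chromosome 4 (hg38, 56393362 to 56435615, 11 exons in the canonical transcript). The summed counts of its 10 guides amounted to 56.5 CPM (counts-per-million, the share of the library total) in apilimod and 60.5 CPM in DMSO, against 193 CPM in the initial population, with 95% Wilson intervals of 53.6 to 59.5, 57.6 to 63.5 and 187 to 198. Intervals cover counting error only, since reads without molecular identifiers are not independent cells. The PPAT score was −2.87 ± 1.81 in apilimod and −2.55 ± 2.03 in DMSO (SD over guides, n = 9), and all 9 tested guides fell below the control median in each arm (exact test, adjusted p = 1.49e-09 and 3.36e-12). The weakest guide in apilimod was sgPPAT_4, with 516 counts in apilimod and 305 in DMSO against 603 in the initial population, and the weakest in DMSO was sgPPAT_8, with 525 and 532 against 669. The strongest in apilimod was sgPPAT_2, with 2 counts in apilimod and 21 in DMSO against 155. The guide sgPPAT_3 had 27 counts in apilimod, 0 in DMSO and 159 in the initial population, so that it was at least 56.4-fold lower in DMSO, taking 3 counts as the limit that a count of 0 allows. With guides at 0 set to 3 counts, the PPAT score in DMSO was −2.38.

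PPAT and PAICS are head-to-head neighbours on chromosome 4. In GENCODE v44 the PPAT gene starts at 56435615 on the minus strand and PAICS at 56435741 on the plus strand, with 125 bases between the starts. The window around the PPAT start is shown because it holds the starts of both members. It is RefSeq sequence of GRCh38.p14, chr4:56435566-56435865, on the minus strand, and capitals mark the stretch between the starts.
PPAT start window: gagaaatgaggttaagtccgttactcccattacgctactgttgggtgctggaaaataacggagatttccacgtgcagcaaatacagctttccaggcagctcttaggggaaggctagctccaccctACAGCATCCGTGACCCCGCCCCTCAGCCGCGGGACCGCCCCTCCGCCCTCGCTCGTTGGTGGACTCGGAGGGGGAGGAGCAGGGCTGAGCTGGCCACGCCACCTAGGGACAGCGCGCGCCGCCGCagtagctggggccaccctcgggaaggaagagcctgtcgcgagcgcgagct
The distance of the guides from this window was not analysed here, and the PPAT and PAICS values are given separately.

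GART, a trifunctional enzyme that carries out the second, the third and the fifth step, is encoded on the minus strand of chromosome 21 (33503931 to 33543491, 22 exons). Its 10 guides together held 104 CPM in apilimod and 104 in DMSO, against 305 in the initial population. The GART score was −2.40 ± 2.07 in apilimod and −2.08 ± 1.47 in DMSO (SD, n = 10), and all 10 guides lay below the control median in each arm. The exact test gave an adjusted p of 1.45e-12 in apilimod and 1.53e-12 in DMSO. The larger SD in apilimod came with 1 guide, sgGART_10, which had 0 counts in apilimod and 97 in DMSO against 182 in the initial population, at least 62.9-fold lower in apilimod. Without it the GART score in apilimod was −1.83. The weakest guide in both arms was sgGART_9, at −0.80 in apilimod and −0.38 in DMSO, and the strongest in DMSO was sgGART_4, with 105 counts in apilimod and 14 in DMSO against 314.

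PFAS, the synthase of the fourth step, which takes an amino group from glutamine, had the lowest mean score of the group in apilimod. The gene lies on the plus strand of chromosome 17 (8247618 to 8270491, 28 exons). Summed over guides, PFAS had 69.9 CPM in apilimod and 71.0 in DMSO, against 270 in the initial population, which left 25.9% and 26.3% of the starting share. The PFAS score was −2.95 ± 2.44 in apilimod and −2.15 ± 0.93 in DMSO (SD, n = 9), with all 9 guides below the control median in each arm (exact test, adjusted p = 2.52e-11 and 1.33e-13). The guide sgPFAS_2 had 0 counts in apilimod and 35 in DMSO against 412 in the initial population, at least 142-fold lower in apilimod. Without it the PFAS score in apilimod was −2.22. The weakest guide was sgPFAS_1 in both arms, with 201 counts in apilimod and 180 in DMSO against 268.

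PAICS, a bifunctional enzyme that acts after the GART and PFAS steps, was depleted in both arms. It lies on the plus strand of chromosome 4 (56435741 to 56464578, 9 exons). The PAICS guides summed to 195 CPM in apilimod and 205 in DMSO, against 374 in the initial population. That sum rested largely on 1 guide, sgPAICS_6, with 3522 counts in apilimod and 3661 in DMSO against 5113. The PAICS score was −1.51 ± 1.49 in apilimod and −1.21 ± 1.02 in DMSO (SD, n = 9), with 8 of 9 guides below the control median in each arm (exact test, adjusted p = 6.92e-05 and 7.81e-05). The exception in both arms was sgPAICS_8, which gained, with 321 counts in apilimod and 371 in DMSO against 248 in the initial population. The strongest guides were sgPAICS_7 in apilimod, at −3.94, and sgPAICS_2 in DMSO, at −2.83. The guide sgPAICS_3 had 0 counts in all libraries and was not tested. The annotation lists 7 pseudogenes under the PAICS name, more than for any other member but IMPDH1, with 10.

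ADSL, adenylosuccinate lyase, acts both in the common chain and in the AMP branch. It is encoded on the plus strand of chromosome 22 (40346461 to 40390463, 13 exons). The ADSL pool held 58.2 CPM in apilimod and 81.0 in DMSO, against 231 in the initial population. The ADSL score was −2.25 ± 0.82 in apilimod, the smallest SD of the 9 depleted genes in that arm, and −1.91 ± 1.74 in DMSO (n = 10). All 10 guides were below the control median in apilimod and 9 of 10 in DMSO (exact test, adjusted p = 3.90e-14 and 1.60e-05). The guide that differed was sgADSL_1, with 18 counts in apilimod and 245 in DMSO against 147 in the initial population. Without sgADSL_1 the ADSL score in DMSO was −2.19. The strongest guides were sgADSL_2 in apilimod, at −3.25, and sgADSL_3 in DMSO, with 136 counts in apilimod and 36 in DMSO against 1238, and the weakest in apilimod was sgADSL_8, at −1.04.

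ATIC, the bifunctional enzyme that closes the ring to IMP, was depleted by every guide. It is encoded on the plus strand of chromosome 2 (215311956 to 215349773, 16 exons). Summed over guides, ATIC had 101 CPM in apilimod and 86.1 in DMSO, against 371 in the initial population. The ATIC score was −2.25 ± 1.23 in apilimod and −2.23 ± 0.64 in DMSO (SD, n = 10), the smallest SD of the 9 genes in DMSO. All 10 guides lay below the control median in each arm (exact test, adjusted p = 2.28e-13 and 5.13e-17). The guides of ATIC ran in apilimod between sgATIC_5, at −4.86, and sgATIC_4, at −0.84, and in DMSO between sgATIC_5, at −3.27, and sgATIC_8, at −1.12.

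On the branch to AMP, ADSS, the adenylosuccinate synthetase that joins aspartate to IMP (current symbol ADSS2), was depleted in both arms. It lies on the minus strand of chromosome 1 (244408494 to 244451909, 13 exons). The ADSS guides summed to 94.5 CPM in apilimod and 127 in DMSO, against 210 in the initial population. The ADSS score was −1.83 ± 1.35 in apilimod and −1.28 ± 1.10 in DMSO (SD, n = 10), with all 10 guides below the control median in each arm (exact test, adjusted p = 4.41e-08 and 1.99e-07). The strongest guide in both was sgADSS_2, with 20 counts in apilimod and 43 in DMSO against 340, and the weakest were sgADSS_7 in apilimod, at 0.00, and sgADSS_9 in DMSO, at −0.15. ADSSL1, the isozyme known for its expression in muscle, had a score of −0.24 ± 0.74 in apilimod, with an adjusted p of 0.231, and of −0.26 ± 0.42 in DMSO (n = 9), where it was called lower (exact test, adjusted p = 0.0203).

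On the branch to GMP, the IMP dehydrogenases IMPDH1 and IMPDH2 make xanthosine monophosphate and GMPS, GMP synthetase, aminates it. GMPS has no isozyme among the members and lies on the plus strand of chromosome 3 (155870650 to 155944020, 16 exons). The GMPS pool held 66.8 CPM in apilimod and 64.5 in DMSO, against 181 in the initial population. The GMPS score was −2.13 ± 1.62 in apilimod and −2.06 ± 1.32 in DMSO (SD, n = 8), with all 8 tested guides below the control median in each arm (exact test, adjusted p = 4.01e-10 and 6.89e-08). The strongest guides were sgGMPS_6 in apilimod, with 6 counts in apilimod and 59 in DMSO against 296, and sgGMPS_2 in DMSO, with 11 and 8 against 133. The weakest guide in both arms was sgGMPS_9, at −0.62 in apilimod and −0.17 in DMSO.

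The IMP dehydrogenases, which catalyse the same reaction, differed. IMPDH2 lies on the minus strand of chromosome 3 (49024325 to 49029447, 14 exons), and its guides summed to 143 CPM in apilimod and 112 in DMSO, against 249 in the initial population. Its score was −1.09 ± 1.09 in apilimod and −1.11 ± 0.77 in DMSO (SD, n = 9), with 8 and 9 of the 9 guides below the control median (exact test, adjusted p = 0.00225 and 8.42e-06). In apilimod the exception was sgIMPDH2_3, with 799 counts in apilimod and 289 in DMSO against 505 in the initial population. The call of IMPDH2 in apilimod ended when every gene guide in place of the control guides served as the null, with an adjusted p of 0.0776. The strongest guides were sgIMPDH2_4 in apilimod, at −2.57, and sgIMPDH2_2 in DMSO, at −2.10, and the weakest in DMSO was sgIMPDH2_7, at 0.13.

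IMPDH1 lies on the minus strand of chromosome 7 (128392277 to 128409986, 17 exons). The IMPDH1 guides summed to 409 CPM in apilimod and 392 in DMSO, against 427 in the initial population, so that 95.8% and 91.6% of the starting share was left. Its score was −0.25 ± 0.75 in apilimod and −0.12 ± 0.41 in DMSO (SD, n = 10), which did not pass the exact test in either arm (adjusted p = 0.0683 and 0.184). The lowest IMPDH1 guide in apilimod was sgIMPDH1_2, with 26 counts in apilimod and 141 in DMSO against 116 in the initial population, while the other 9 ran up to sgIMPDH1_7, at 0.46. In DMSO the IMPDH1 guides ran between sgIMPDH1_3, at −0.71, and sgIMPDH1_4, at 0.50. The score of IMPDH2 minus that of IMPDH1 was −0.84 in apilimod (SE over guides 0.43) and −0.99 in DMSO (SE 0.29), so the difference was over 2 SE in DMSO and just under it in apilimod.

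**Figure D2:**
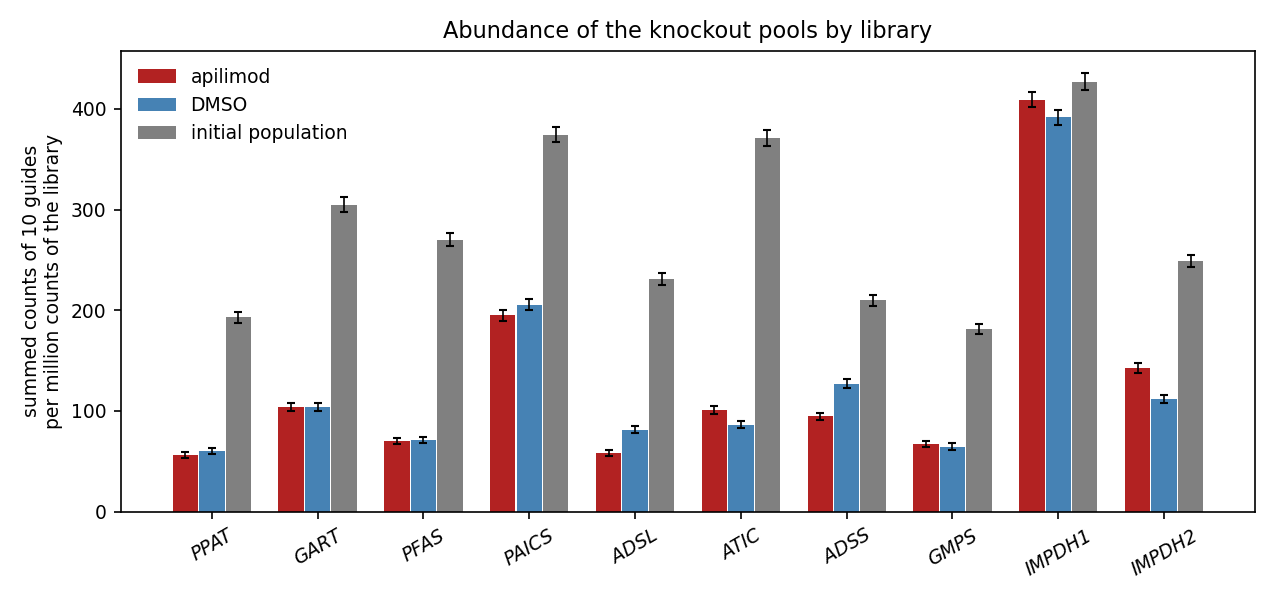
Summed counts of the 10 guides of each gene in counts-per-million of the library total (CPM, y axis) in apilimod, DMSO and the initial population, left to right, with 95% Wilson intervals that cover counting error only. For 9 genes both 14-day bars are well under the initial one, and for IMPDH1 the values are 409, 392 and 427.

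Taken by guide, the depletion was spread over most of the designs. Of the 84 tested guides against the 9 depleted genes, 82 lay below the control median in apilimod, 82 in DMSO and 81 in both. A change of −1 or less was seen for 65 of the 84 in apilimod (77.4%), against 11.9% of all gene guides and 1.85% of control guides in that arm. In DMSO it was seen for 59 of the 84 (70.2%), against 9.98% of all gene guides and 0.821% of control guides. These 9 genes had been called on the same guide values, so high shares among their guides were in part set by that choice. For IMPDH1, sgIMPDH1_2 was the only guide at −1 or less in apilimod, at −2.17, and its lowest guide in DMSO was at −0.71. Guides against 1 gene share a target and are not replicates of the treatment. The 6 guides left out for low initial counts were 1 each against PPAT, PFAS, PAICS and IMPDH2 and 2 against GMPS, with 0 to 70 initial counts.

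In order of score the members ran in apilimod PFAS, PPAT, GART, ADSL, ATIC, GMPS, ADSS, PAICS, IMPDH2 and IMPDH1, and in DMSO PPAT, ATIC, PFAS, GART, GMPS, ADSL, ADSS, PAICS, IMPDH2 and IMPDH1. No neighbours in the apilimod order differed by more than 2 SE of their difference over guides, and in DMSO only IMPDH2 and IMPDH1 did. Ranked from the lowest of 2969 genes, the 9 depleted members stood between positions 14 and 185 in apilimod and between 18 and 147 in DMSO. IMPDH1 stood at position 886 in apilimod and 1139 in DMSO. The genes outside nucleotide metabolism whose pair of scores lay closest to the pair of member medians were ATP6V1F (−2.06 in apilimod, −1.84 in DMSO), ITPK1 (−2.08 and −1.82), ALDH18A1 (−2.40 and −1.92) and ATP5D (−2.01 and −1.85), at Euclidean distances of 0.19 to 0.23 over these 2 values. Likeness here is in these 3 libraries only.

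**Figure D3:**
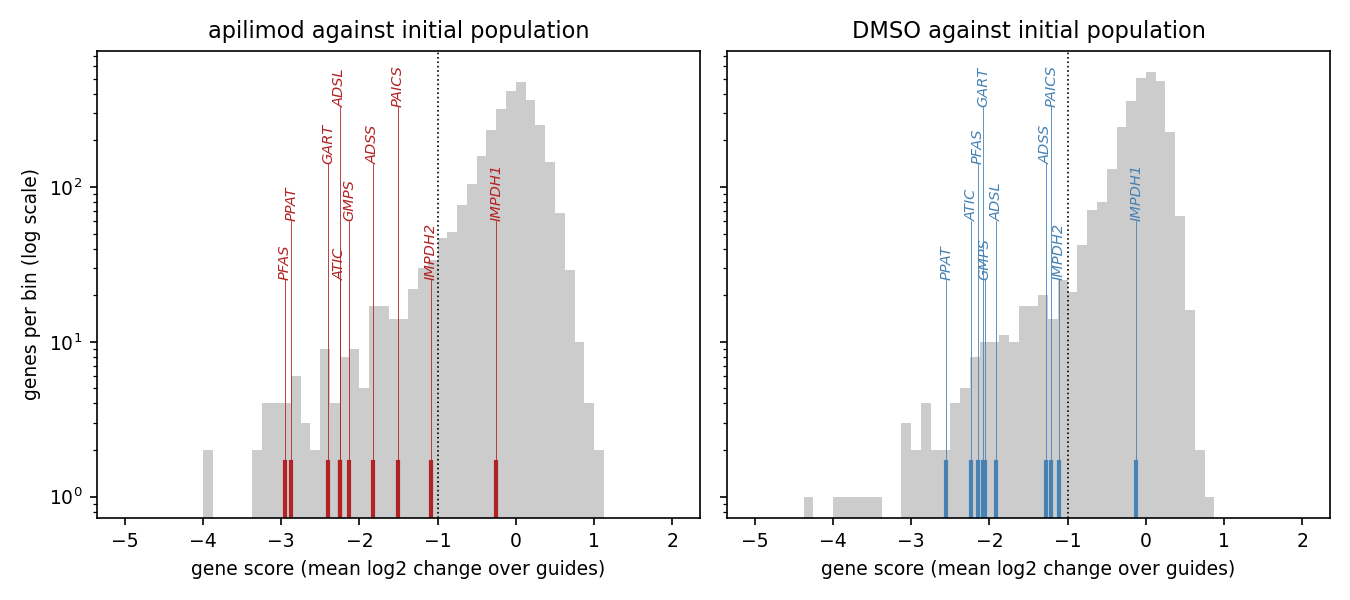
Gene scores of all 2969 genes (x axis, mean log2 change over guides; y axis, genes per bin, log scale) in apilimod, left, and DMSO, right, with the 10 members marked. The dotted line is at −1; 9 members lie left of it in both arms, and IMPDH1 lies at −0.25 in apilimod and −0.12 in DMSO.

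The reactions that feed or bypass the pathway were read from lists of their genes, whose counts stand beside the 29.0% of all genes called lower in apilimod and the 18.9% in DMSO. The control medians, 0.22 in apilimod and 0.14 in DMSO, lay above those of all genes, −0.04 and −0.03. Small negative scores could thus be called. With every gene guide as the null, 225 of all genes were called lower in apilimod and 222 in DMSO, against 862 and 560. Whether the called genes of these lists kept their calls under that null is not reported here. Of 5 genes of PRPP supply, 1 was called lower in each arm: PRPS1, a PRPP synthetase, scored −0.24 ± 0.76 in apilimod and −0.48 ± 0.64 in DMSO (n = 9; exact test, adjusted p = 0.0348 and 0.00474). PRPS2, its paralogue, had the lowest score of the list, −0.67 ± 2.26 in apilimod and −0.76 ± 2.28 in DMSO (n = 10), and was not called (adjusted p = 0.251 and 0.287, exact test). PRPSAP1, a PRPP synthetase-associated protein, was called higher in DMSO, at 0.50 ± 0.35 (n = 9; exact test, adjusted p = 0.0337), and scored 0.05 in apilimod. The highest score in apilimod was 0.70 ± 1.01, of the testis isoform PRPS1L1, which was not called.

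Of 7 purine salvage genes, 1 was called lower in each arm. This was APRT, which salvages adenine to AMP, with 2425 summed counts in apilimod and 3696 in DMSO against 5021 in the initial population. APRT scored −1.70 ± 1.40 in apilimod and −0.72 ± 0.46 in DMSO (n = 8), with all 8 guides below the control median in each arm (exact test, adjusted p = 2.66e-09 and 7.48e-07). HPRT1, which salvages hypoxanthine and guanine to IMP and GMP, scored −0.22 ± 1.37 in apilimod and 0.12 ± 0.67 in DMSO (n = 7) and was not called. The highest score in apilimod was that of MTAP, the phosphorylase of methylthioadenosine, at 0.32 ± 0.91 (n = 9), and in DMSO those of DCK and DGUOK, both at 0.20. The median of the salvage list was −0.00 in apilimod and 0.12 in DMSO.

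Formyl-tetrahydrofolate gives carbons of the purine ring, through GART and ATIC. Of 13 genes of folate metabolism listed for these steps, not all of which supply it, 8 were called lower in apilimod and 5 in DMSO. In each arm 3 had scores of −1 or less. FPGS, which adds the glutamate tail that keeps folates in the cell, scored −2.06 ± 1.35 in apilimod and −1.51 ± 1.04 in DMSO (n = 10). MTHFD1, the cytosolic trifunctional enzyme that makes formyl-tetrahydrofolate, scored −1.63 ± 1.35 in apilimod and −1.53 ± 1.05 in DMSO (n = 9). The mitochondrial MTHFD2 was called in both arms at −0.33 ± 0.43 in apilimod and −0.17 ± 0.32 in DMSO. The serine hydroxymethyltransferases SHMT2 (−0.94 ± 1.73, 10 of 10 guides below the control median) and SHMT1 (−0.42 ± 0.75) were called in apilimod, as were the folate carrier SLC19A1 (−0.18 ± 0.39) and MTHFD2L (−0.10 ± 0.34). SLC25A32, the mitochondrial folate carrier, was called in DMSO (−0.16 ± 0.20, 10 of 10 guides). The highest scores were 0.28 for ALDH1L2 in apilimod and −0.07 for MTHFD1L in DMSO, neither called.

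None of the 6 purine interconversion genes was called in either arm by the exact test. At an unadjusted p under 0.05 there were 2 in apilimod and 0 in DMSO, where 1192 and 882 of all 2969 genes were. They ran between GMPR2, at −0.23 ± 0.74, and GMPR, at 0.13 ± 0.53, in apilimod, and between GMPR2, at −0.15 ± 0.67, and AMPD2, at 0.31 ± 0.44, in DMSO. Of 11 breakdown genes, 3 nucleotidases were called lower in apilimod, NT5C (−0.50 ± 0.84), NT5C1A (−0.26 ± 0.52) and NT5C3A (−0.23 ± 0.38), and 1 in DMSO, NT5C2 (−0.33 ± 0.65), a share near that of all genes in apilimod and under it in DMSO. The lowest breakdown score in apilimod, −0.70 of XDH, xanthine dehydrogenase, did not pass, and the highest were 0.15 for GDA in apilimod and 0.33 for NT5C3B in DMSO. Past GMP and AMP, 5 of 14 purine nucleotide kinases were called lower in apilimod and 4 in DMSO, not far above the shares of all genes (29.0% and 18.9%). GUK1, guanylate kinase, which turns GMP into GDP, had the lowest scores of the list, −2.68 ± 2.44 in apilimod and −2.08 ± 1.35 in DMSO, with 8 of 8 guides below the control median in each arm. It had 1595 summed counts in apilimod and 2149 in DMSO against 6127 in the initial population (exact test, adjusted p = 1.01e-10 and 9.25e-09). NME6, of the nucleoside diphosphate kinase family, scored −1.08 ± 1.73 in apilimod and −1.47 ± 1.41 in DMSO, and AK8 scored −0.46 ± 0.67 and −0.49 ± 0.76. The other kinases called were AK4 (−0.14 ± 0.22) and NME1 (−0.25 ± 0.43) in apilimod and NME2 (−0.46 ± 0.71) in DMSO, and the scores reached 0.10 for AK7 in apilimod and 0.21 for AK5 in DMSO. NME1 and NME2 are close in sequence, so their guides may share targets.

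**Figure D4:**
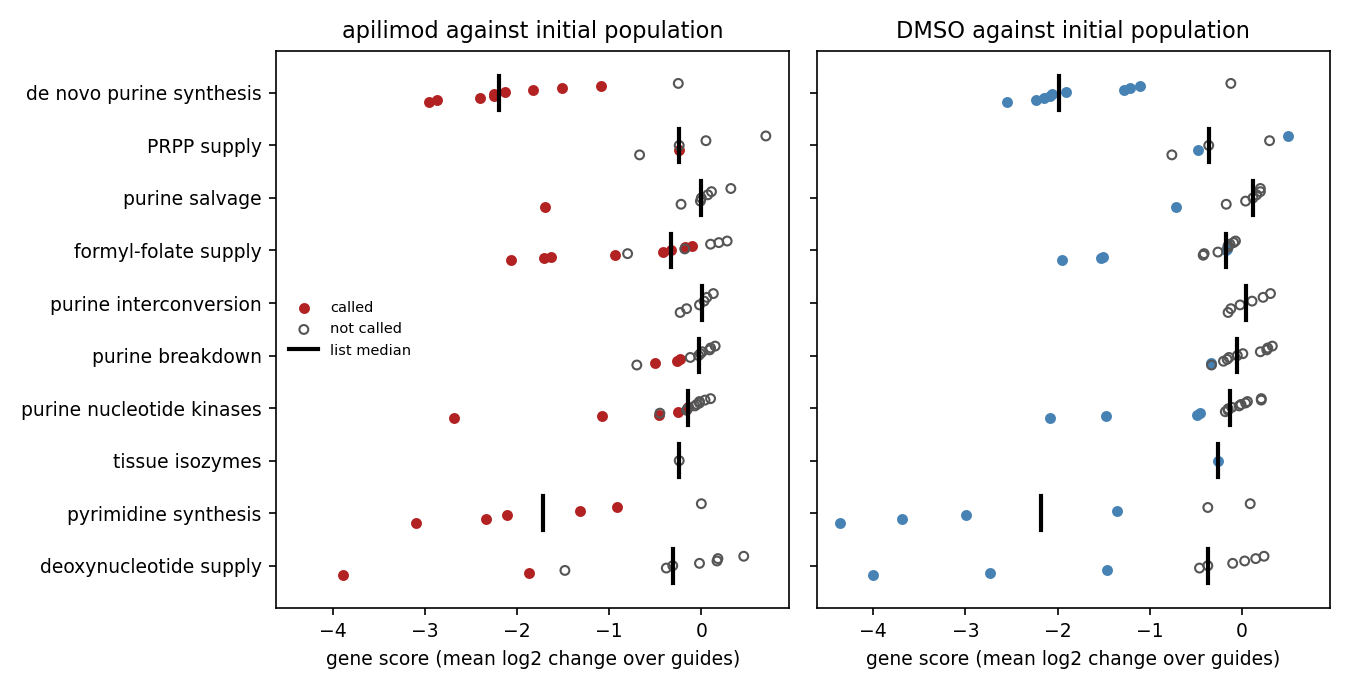
Gene scores (x axis, mean log2 change over guides) of de novo purine synthesis and of 9 neighbouring gene lists (rows) in apilimod, left, and DMSO, right. Filled points passed the guide test, open points did not, and bars are list medians, −2.19 in apilimod and −1.98 in DMSO for de novo purine synthesis.

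Between the 14-day arms no difference passed the test for any of the 10 genes. For this comparison each arm was scaled so that the control median was 0 and the median of 100 reference genes outside nucleotide synthesis was −1, and each guide's scaled DMSO value was subtracted from its scaled apilimod value. Before scaling the reference medians were −1.11 in apilimod and −0.98 in DMSO. None of the 10 was called lower in apilimod, where 17 of 2969 genes were (0.573%), and none higher, where 6 were (0.202%). At an unadjusted p under 0.05 by the exact test there was 1 of the 10 and 313 of all genes. The split of all calls depended on the scaling: without it 36 genes were lower and 1 higher, and with the N-glycosylation genes as the reference 11 were lower and 43 higher.

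The gene nearest to a call was ADSS, whose guides averaged a log2 ratio between apilimod and DMSO of −0.55 ± 0.61 (SD, n = 10) and a lower scaled value in 8 of 10 guides (exact test, adjusted p = 0.254). PFAS had a mean ratio of −0.80 ± 1.76 (n = 9), which rested on sgPFAS_2, with 0 counts in apilimod: without it the PFAS ratio was −0.26. The ratio of ATIC was −0.01 ± 0.91 (n = 10). In z, the scaled difference centred on all genes in units of their SD, the members lay between −1.42 for PFAS and 1.28 for ATIC. With guides at 0 set to 3 counts, PFAS was at −0.85 and ADSS, at −1.17, was the lowest. The members' z had a median of 0.06 against −0.02 for all genes. The median unscaled ratio was −0.31 against −0.01 for all genes. In summed counts ADSL had 71.9% and ADSS 74.2% of the DMSO share in apilimod, while IMPDH2 had 127% and ATIC 117%.

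For 27 of the 84 tested guides of the 9 depleted genes, the ratio rested on a mean under 100 counts. The SD of the log2 ratio over the 84 guides of the 9 depleted genes was 1.50, and 28.6% differed by 2-fold or more, against an SD of 0.77 and 12.0% over all gene guides. The 27 of these guides with a mean under 100 counts in the 14-day libraries had an SD of 2.25, close to the 2.13 of the 920 gene guides at that depth. The 57 with 100 or more had an SD of 0.93, against 0.67 for the 27122 gene guides with 100 or more. That range has no upper limit, so depth was not matched within it. The cause of the wider spread was not tested. The widest ratios were −6.58 for sgGART_10 and 4.85 for sgPPAT_3, each with 0 counts in 1 library. The p that missed the threshold does not show that the arms acted alike at these depths.

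**Figure D5:**
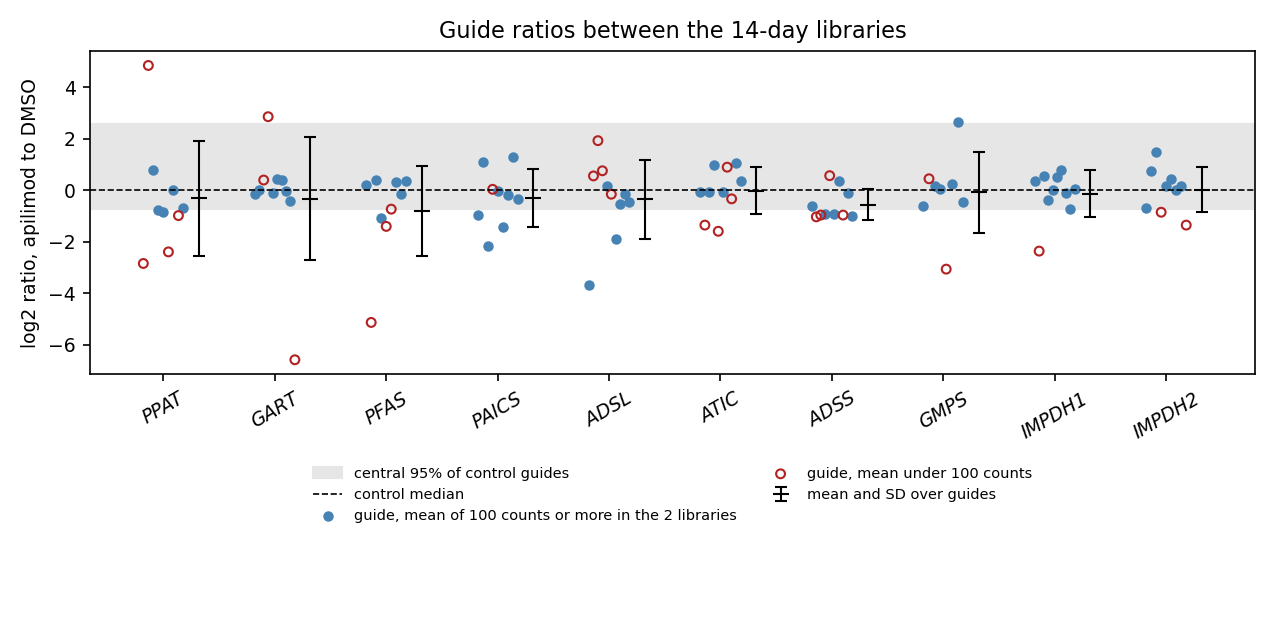
Log2 ratio of apilimod to DMSO for each guide (y axis) of the 10 genes (x axis), with filled points for guides with a mean of 100 counts or more in the 14-day libraries, open points for those under it, and bars for the mean and SD over guides. The grey band is the central 95% of control guides, −0.73 to 2.59. Of these control guides, 486 of 487 had a mean of 100 counts or more. For the 920 gene guides under 100 counts the central 95% was −5.57 to 4.29. The widest points, at −6.58 and 4.85, are open.

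The pyrimidine pathway, the companion route to nucleotides, was also depleted. Of its 6 tested genes, 5 were called lower in apilimod and 4 in DMSO, with median scores of −1.72 and −2.17. CAD, which starts pyrimidine synthesis, scored −3.10 ± 2.64 in apilimod and −4.36 ± 2.71 in DMSO (n = 10), and DHODH, the dihydroorotate dehydrogenase, −2.34 ± 1.93 and −3.69 ± 2.63 (n = 9). Both were called higher in apilimod than in DMSO (z = 6.89 and 6.79; exact test, adjusted p = 0.000214 and 0.0192), while UMPS, which makes UMP, was not (z = 4.73, adjusted p = 0.443). The calls depended on the scaling: without it 1 of the 2969 genes was called higher, so CAD and DHODH did not both hold. Summed over guides, DHODH had 1425 counts in apilimod and 727 in DMSO against 5473 in the initial population. The median z was 2.82 over the pyrimidine list, against 0.06 over the purine genes, and a difference between the lists was not tested. Of 9 deoxynucleotide genes, 2 were called lower in apilimod, a share under the 29.0% of all genes, and 3 in DMSO, where 18.9% of all genes were, with none called between the arms. Among them DTYMK, thymidylate kinase, scored −3.89 ± 2.70 in apilimod and −4.00 ± 2.75 in DMSO, RRM1, the large subunit of ribonucleotide reductase, −1.87 ± 2.42 and −2.73 ± 2.24, RRM2, its small subunit, −0.38 ± 0.93 and −0.37 ± 1.02, and TYMS, thymidylate synthase, 0.46 ± 0.53 and 0.03 ± 0.68. In the purine lists outside the 10 members, no gene was called in the comparison of apilimod with DMSO.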

How the data were processed

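The authors deposited raw counts of reads per guide, with no normalization. Per the labels and the submitters' processing notes, bcl2fastq, cutadapt 4.1, Bowtie2 2.4.5 and MAGeCK 0.5.9.5 were used to trim, align and count the guide reads, and the guides carry no molecular identifiers. The series table and the library files held equal counts (0 values differed). Guides with under 100 initial counts and genes with under 6 guides were left out, leaving 28042 guides of 2969 genes and 487 control guides. A pseudocount of 1 was added, counts were divided by the library total, and log2 changes were averaged over guides. Tests, scaling and lists are as described with the results. All 10 members are named, with guides that were extreme or on the other side of the control median, and, of the related lists, the genes called and those of lowest or highest score. Members and lists were chosen with earlier results of these data known. The test was tried on simulated counts. Alternatives covered the minimum, pseudocount, zeros, guide average, library scaling, null guides, reference genes and each guide left out. Gene positions are from GENCODE 44 on hg38. Guide sequences were not used here. Values of some genes of the related lists are not reported here. Python 3.11.15, numpy 2.4.6, pandas 2.3.3 and scipy 1.17.1 were used.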

Additional observations from a re-analysis of the deposited data

How the results depend on the processing

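Across 9 alternatives for each arm, 13 for apilimod against DMSO and the extremes of leaving out each guide, 367 of 370 values of single members kept their side of the threshold. None that was called changed sign, and 26 uncalled ones did. IMPDH2 in apilimod was lost with every gene guide as the null (adjusted p = 0.0776 by the exact test), which left 8 of 10 members called. ATIC became higher in apilimod than in DMSO with the N-glycosylation reference (z = 3.04, adjusted p = 0.00159 by the exact test), the only such member, so that this count was 1. IMPDH1 in apilimod passed in 2 of the 10 fits that left out 1 of its guides, reaching −0.33 (adjusted p = 0.0303 by the exact test). Leaving out each guide kept the other 9 genes called in both arms. The median member z moved to 1.24 with a minimum of 300 initial counts, to −1.05 without scaling and to 1.62 with the N-glycosylation reference. Calls over all genes moved by over 1.5 times with every gene guide as the null (225 lower and 82 higher in apilimod, 222 and 50 in DMSO, 7 and 6 between the arms), and between the arms with a minimum of 300 (3 lower, 5 higher), without scaling (36 and 1) and with the N-glycosylation reference (11 and 43). Fewer genes were higher between the arms with no minimum and with the respiratory chain and heme reference (2 each, against 6), and more were higher in apilimod than in the initial population with a minimum of 300 (13), no minimum (12) and control guides of at least 300 counts as the null (17, against 7). Division by the control guides' counts moved the median of all genes to −0.30 in apilimod and −0.19 in DMSO, against −0.04 and −0.03, and no member's call. No paired analysis was possible because each group has 1 library. No library could be left out, and few counts in depleted guides limit the comparison of the 14-day arms. The cause of these shifts was not tested.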
